A study of Mus musculus with 12 samples.

Results

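The genes described here encode the subunits of the last 3 complexes of mitochondrial oxidative phosphorylation, together with cytochrome c. They were chosen by name from the annotation of the array: every gene whose symbol starts with Uqcr, Cox4, Cox5, Cox6, Cox7, Cox8 or Atp5, and Cyc1 and Cycs. Only probe sets annotated with 1 gene were used, and a gene with several sets was represented by the set with the highest mean over all arrays. This gave 44 of the 19938 genes measured. They comprise 9 genes of complex III, 1 of cytochrome c, 17 of complex IV and 17 of ATP synthase.

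Liver RNA of 129Sv mice aged 12 weeks was hybridized to 12 Affymetrix arrays, 3 in each of 4 groups. The groups were wild type on standard diet, SIRT3KO on standard diet, wild type on high-fat diet and SIRT3KO on high-fat diet. Wild type stands here for the arrays titled Control. The high-fat groups received a Western diet with 42% fat from weaning, and the mice of all 4 groups were fasted for 24 h. SIRT3 is a protein deacetylase of the mitochondrial matrix. The series asks how diet alters liver expression in these genotypes. How the knockout allele was made, in which cells it acts and the sex of the mice are not given in the sources used here. The labels number the arrays of a group as replicates, and p-values measure the spread between these arrays.

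Complex III passes electrons from ubiquinol to cytochrome c, a small soluble carrier, and complex IV passes them from cytochrome c to oxygen. Both pump protons out of the matrix, and ATP synthase lets the protons return through its membrane ring of c subunits and makes ATP in its catalytic head. Mitochondrial DNA encodes cytochrome b of complex III, the catalytic core of complex IV and part of the membrane sector of ATP synthase. Nuclear genes encode all other subunits. Several small subunits of complex IV exist as paired isoforms, 1 made in most tissues including liver and 1 made mainly in striated muscle, lung or testis. NRF1 and the ETS factor GABP (also called NRF2) are known regulators of nuclear genes for these subunits.

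Of the 44 genes, 33 matched an entry in the table of RefSeq promoters of the mouse build GRCm38.p6, each spanning 250 bases before and 50 after a transcription start. No entry was matched for Atp5a1, Atp5mpl, Cox4i1, Cox4i2, Cox6a2, Cox6c, Cox8c, Cyc1, Uqcrb, Uqcrc2 and Uqcrq. The letters of an NRF1 site, CGCANGCGC on either strand, stood in the promoters of 14 of the 33 genes (42.4%), against 6.31% of all 32851 promoter windows. The letters of an ETS site, CCGGAAG, stood in 11 of the 33 genes (33.3%, against 8.86% of windows). The CCAAT box, searched as CCAAT, stood in 19 (57.6%, against 37.4%), the YY1 letters AAGATGG in 3 (9.09%, against 6.34%), the TATA box letters TATAAA in 4 (12.1%, against 13.6%), and the E-box CAGCTG, a motif of muscle regulators, in 2 (6.06%, against 16.3%). These matches are letters only and are given as a description. A gene may have more than 1 window (36 windows for the 33 genes), which raises its chance of a match.

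The promoters of 6 genes on which the results turn are printed below 5′ to 3′ on the strand of the gene, with every match to the 6 motifs in capitals on either strand. No matches overlap in these windows. Uqcr10, Atp5e and Atp5j2 are the subunits that fell with the high-fat diet in the wild type. Uqcr10 (chr11:4704295-4704594 on the minus strand) holds an inverted CCAAT box and the NRF1 letters, Atp5e (chr2:174464052-174464351 on the minus strand) the inverted ETS letters and 2 CCAAT boxes, and Atp5j2 (chr5:145191492-145191791 on the minus strand) an inverted CCAAT box and the YY1 letters.
Uqcr10: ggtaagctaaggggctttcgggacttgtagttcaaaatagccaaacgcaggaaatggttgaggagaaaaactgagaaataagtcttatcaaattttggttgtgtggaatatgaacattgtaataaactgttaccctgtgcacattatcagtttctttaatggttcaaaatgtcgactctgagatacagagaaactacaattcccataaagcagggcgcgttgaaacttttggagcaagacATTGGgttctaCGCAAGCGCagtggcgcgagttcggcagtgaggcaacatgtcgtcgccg
Atp5e: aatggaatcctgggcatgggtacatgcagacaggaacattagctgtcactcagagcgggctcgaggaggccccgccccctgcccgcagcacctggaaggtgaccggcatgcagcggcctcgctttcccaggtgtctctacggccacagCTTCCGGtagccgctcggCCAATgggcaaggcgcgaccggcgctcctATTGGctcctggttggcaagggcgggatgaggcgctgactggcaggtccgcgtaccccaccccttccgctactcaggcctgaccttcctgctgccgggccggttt
Atp5j2: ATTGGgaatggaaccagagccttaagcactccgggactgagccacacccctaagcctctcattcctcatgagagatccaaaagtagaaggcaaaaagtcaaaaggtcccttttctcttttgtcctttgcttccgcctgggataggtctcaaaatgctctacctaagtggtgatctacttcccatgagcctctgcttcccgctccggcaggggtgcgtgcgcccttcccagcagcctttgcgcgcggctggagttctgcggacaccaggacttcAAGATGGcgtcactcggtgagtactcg
Cycs, the cytochrome c made in liver, had the lowest value between the genotypes on the standard diet. Its promoter (chr6:50566520-50566819 on the minus strand) holds the NRF1 letters and a CCAAT box.
Cycs: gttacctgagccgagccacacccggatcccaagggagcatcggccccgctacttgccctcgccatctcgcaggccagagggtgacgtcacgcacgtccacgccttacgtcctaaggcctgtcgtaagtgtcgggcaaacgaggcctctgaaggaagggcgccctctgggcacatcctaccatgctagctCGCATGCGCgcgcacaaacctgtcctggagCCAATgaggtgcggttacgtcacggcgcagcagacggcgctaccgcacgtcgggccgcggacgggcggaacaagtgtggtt
Cox7a1 and Cox8b are complex IV isoforms of heart and skeletal muscle that stood high on 1 array. The Cox7a1 promoter (chr7:30183921-30184220 on the plus strand) holds 2 inverted CCAAT boxes, and the Cox8b promoter (chr7:140900397-140900696 on the minus strand) holds 2 E-boxes and a TATA box. Of the 7 isoforms of other tissues 4 had a promoter entry (Cox6b2, Cox7a1, Cox7b2 and Cox8b), and 0 of these 4 held the NRF1 or the ETS letters.
Cox7a1: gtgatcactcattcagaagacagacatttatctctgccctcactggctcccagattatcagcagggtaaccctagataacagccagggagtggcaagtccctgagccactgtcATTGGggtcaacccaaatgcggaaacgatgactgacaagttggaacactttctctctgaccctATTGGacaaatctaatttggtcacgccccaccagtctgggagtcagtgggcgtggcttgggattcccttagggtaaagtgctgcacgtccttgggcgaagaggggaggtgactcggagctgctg
Cox8b: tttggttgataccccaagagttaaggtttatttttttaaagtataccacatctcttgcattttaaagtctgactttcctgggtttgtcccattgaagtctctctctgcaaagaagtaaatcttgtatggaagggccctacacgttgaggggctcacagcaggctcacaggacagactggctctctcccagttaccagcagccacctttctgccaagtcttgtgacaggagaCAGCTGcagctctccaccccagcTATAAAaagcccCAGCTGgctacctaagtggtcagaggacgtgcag

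All values are log2 expression values, so that a difference of 1 is a doubling. Hepatocyte markers were high throughout: 9 of 10 were measured, and their mean level lay between 13.39 and 13.60 on every array. In RNA from whole liver, fewer cells of a type and less RNA per cell cannot be told apart. The array medians ranged from 6.34 to 6.47. The diets appear to have been normalized in separate runs. For 335 probe sets every standard-diet array lacked a value that every high-fat array had. Arrays of different diets shared a median of 0 exactly equal values, against 20 for pairs within the standard diet and 7 within the high-fat diet. The genotypes are thus compared within runs, while diet and run cannot be told apart. Sirt3 itself was lower in the knockout by values that did not pass the test, -0.14 on the standard diet and -0.42 on the high-fat diet (limma adjusted p = 0.660 and 1.00). In both diets the genotypes did not overlap, but where its probes lie relative to the deleted part is not given in the sources used here. Knockout standard-diet arrays 1 and 2 stood apart. On replicate 1 the mean of 12 acute-phase genes lay 2.21 above the wild-type mean of that diet, and on replicate 2 the mean of 10 striated-muscle markers lay 1.25 above it. Some values are given with and without these arrays, and other values that use the knockout on standard diet may also depend on them.

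**Figure D1:**
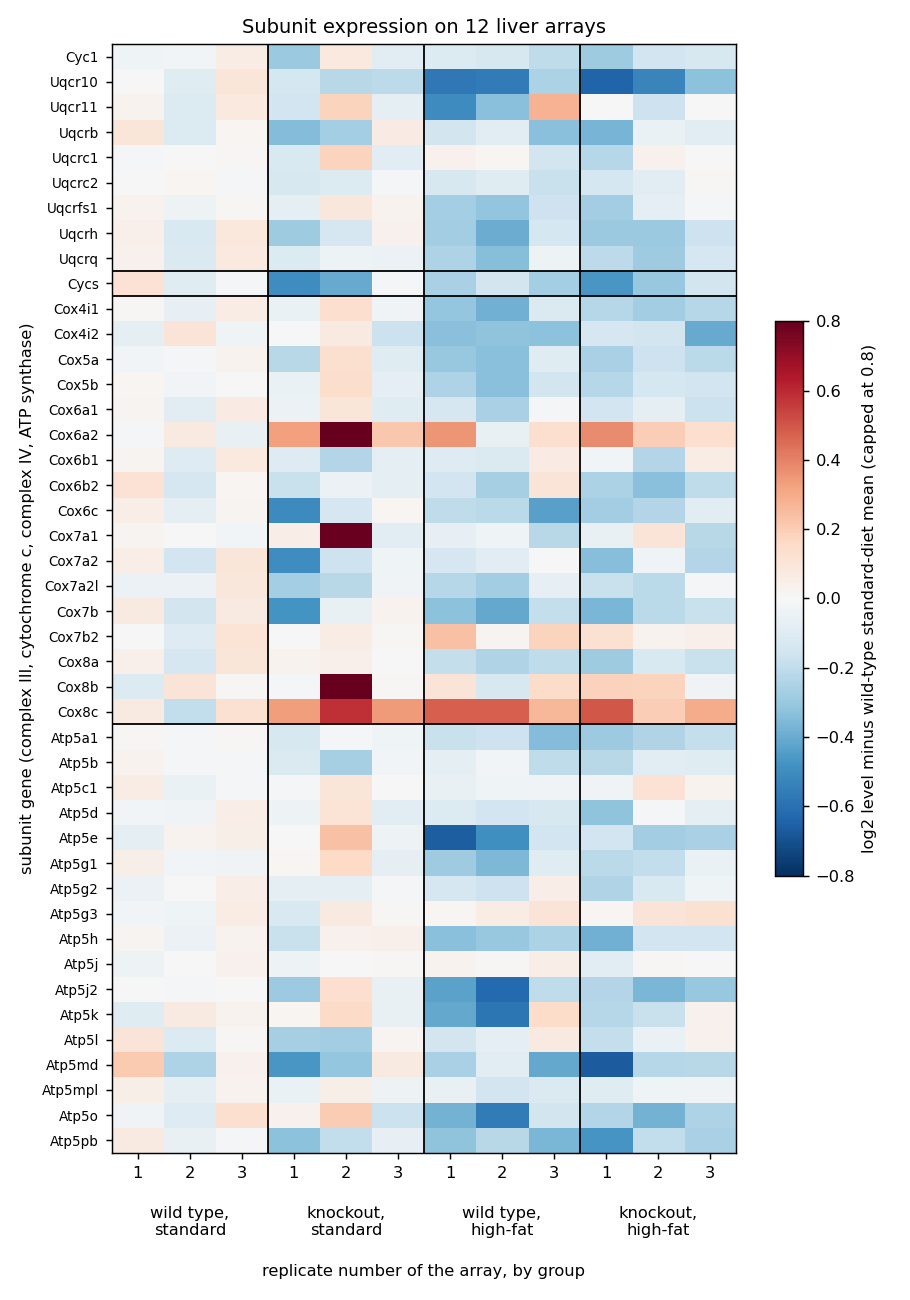
Level of each of the 44 subunit genes (rows, grouped by complex) on the 12 arrays (columns, grouped by genotype and diet), drawn as the log2 difference from the mean of the wild-type standard-diet arrays, with colours capped at 0.8. The high-fat columns are mostly blue (lower), and the muscle isoforms Cox6a2, Cox7a1 and Cox8b stand out on replicate 2 of the knockout on standard diet.

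In the wild type, 3 subunits fell with the high-fat diet and 0 rose: Uqcr10 of complex III and Atp5e and Atp5j2 of ATP synthase. All the other subunits missed the threshold of a limma adjusted p under 0.05 over all genes. Among all 19938 genes, 1.69% fell and 4.3% rose in this comparison, so the share of subunits that fell (6.82%) can be read against that. The 44 differences had a median of -0.19, and 38 of them were below 0, while the median of all genes was 0.04 and 41.8% of genes lay below 0. For 24 subunits every high-fat array lay below every standard-diet array, and for 1 (Cox8c) every one lay above, against 10.9% and 19.4% of all genes.

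Uqcr10, a small subunit of complex III that lies beside its cytochrome c1, stood at 8.89, 8.79 and 8.98 on the wild-type standard-diet arrays and at 8.31, 8.32 and 8.63 on the wild-type high-fat arrays. The groups did not overlap, and the third high-fat array was the closest to the standard diet. The difference was -0.46 (SE 0.106, limma adjusted p = 0.0224), a level 27.4% lower. Atp5e, the ε subunit of the central stalk, stood at 8.91, 9.02 and 9.04 on the standard diet and at 8.33, 8.498 and 8.83 on the high-fat diet. Again all 3 high-fat arrays were lower, with a wide spread among them, and the difference was -0.43 (SE 0.117, limma adjusted p = 0.0440). Atp5j2, subunit f of the membrane sector, was nearly constant on the standard diet, at 11.37, 11.36 and 11.37, and lay at 10.94, 10.74 and 11.16 on the high-fat diet. The groups did not overlap, and the difference was -0.42 (SE 0.113, limma adjusted p = 0.0436).

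These 3 calls rest on few arrays. In this comparison 0 subunits were called without wild-type standard-diet replicate 1 or 3 or wild-type high-fat replicate 1 or 2, 1 without wild-type standard-diet replicate 2 or knockout high-fat replicate 2 or 3, 5 without knockout high-fat replicate 1 and 6 without wild-type high-fat replicate 3. The share of all genes called in each omission is not given here, so these counts do not separate the subunits from a change over all genes. Over these omissions the differences of the 3 genes ranged from -0.57 to -0.32. Some markers of other liver cells moved with the diet in the wild type, where 4.3% of all genes rose and 41.8% lay below 0. Of 5 lymphocyte markers 2 rose, and of 6 endothelial markers 1 rose. All 8 Kupffer cell and macrophage markers had values above 0 (median 0.23) without passing. The 9 hepatocyte markers had a median of -0.01 with 0 called. The part of these cell types in the subunit values was not tested.

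**Figure D2:**
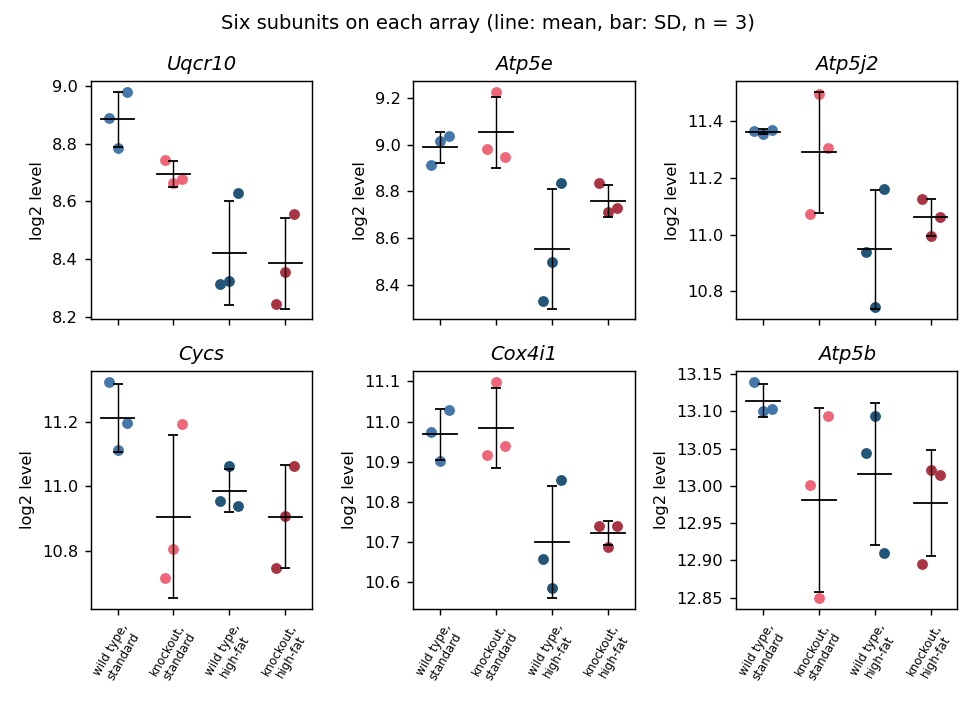
Log2 level (y axis) of 6 subunits on each array in the 4 groups (x axis), with replicates 1 to 3 from left to right, a line at the group mean and a bar of 1 SD (n = 3). Uqcr10, Atp5e, Atp5j2 and Cox4i1 are lower in both high-fat groups, while for Cycs and Atp5b the groups overlap more.

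In the knockout, 0 subunits were called between the diets (5.11% of all genes were called, 2.66% lower), 8 stood at an unadjusted limma p under 0.05, all lower (11.8% of all genes), and the smallest adjusted p was 0.0917, for Cox4i1. The median difference was -0.12 against -0.01 for all genes, and 33 of 44 subunits lay below 0, against 52.3% of genes. This median was -0.06 without knockout standard-diet replicate 2 or knockout high-fat replicate 1 and -0.18 without standard-diet replicate 1. For 9 subunits the high-fat arrays all lay below the standard-diet arrays (13.2% of all genes), and for 0 all above (10.6%). The same 3 genes gave smaller values than in the wild type. They were picked by their wild-type calls, which by itself favours smaller values in the knockout. Uqcr10 stood at 8.74, 8.66 and 8.68 on the standard diet and at 8.24, 8.36 and 8.55 on the high-fat diet, without overlap (-0.31, SE 0.106, limma adjusted p = 0.106). Atp5e stood at 8.98, 9.23 and 8.95 and then at 8.83, 8.71 and 8.73, also without overlap (-0.29). Atp5j2 stood at 11.07, 11.50 and 11.31 and then at 11.13, 11.00 and 11.06, where the first standard-diet array lies among the high-fat ones (-0.23). In both genotypes together, 29 of the 44 subunits had lower means on the high-fat diet in each genotype (32.3% of all genes). For 7 of them the arrays of the diets did not overlap in either (5.14% of all genes): Uqcr10, Cox4i1, Cox5b, Cox8a, Atp5a1, Atp5e and Atp5o.

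The averaged diet difference uses the same arrays as both comparisons above and is no separate evidence. With the diet difference averaged over the genotypes, 13 subunits fell and 0 rose, against 7.69% of all genes that fell and 10.3% that rose. The median subunit difference was -0.13 against 0.01 for all genes, with 38 of 44 below 0 (46.5% of genes). By complex, 2 of 9 genes of complex III fell, 4 of 17 of complex IV and 7 of 17 of ATP synthase, and Cycs did not pass (-0.11, SE 0.0832). In complex III these were Uqcr10 (-0.39) and Uqcrfs1 (-0.20), the Rieske iron-sulfur protein that takes the first electron from ubiquinol. In complex IV they were Cox4i1 (-0.27), the ubiquitous form of the largest nuclear-encoded subunit and a site of allosteric control, its lung form Cox4i2 (-0.26), the zinc-binding Cox5b (-0.21) and Cox8a (-0.21), the common form of the smallest subunit. In ATP synthase the called genes came from each sector. Atp5a1 (-0.20), the α subunit, and Atp5e (-0.36) belong to the catalytic head and central stalk, Atp5o (-0.33), Atp5h (-0.25) and Atp5pb (-0.21) to the peripheral stalk that holds the head still, and Atp5g1 (-0.22) and Atp5j2 (-0.32) to the membrane sector. Their limma adjusted p ranged from 0.00342 (Uqcr10) to 0.0413 (Uqcrfs1).

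The catalytic β subunit Atp5b was among the 31 subunits that were not called. It stood at 13.14, 13.10 and 13.10 in the wild type on the standard diet, at 13.00, 12.85 and 13.09 in the knockout on that diet, at 13.04, 13.09 and 12.91 in the wild type on the high-fat diet, and at 12.90, 13.02 and 13.02 in the knockout on that diet. The wild-type standard-diet arrays were the highest, the other groups overlapped, and the averaged diet difference was -0.05. The 6 subunits with an averaged value above 0 were Atp5g3 (0.08), another gene for the c ring, Atp5j (0.01), Atp5l (0.03), Cox6b1 (0.01) and the testis isoforms Cox7b2 (0.09) and Cox8c (0.16).

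Of the role genes of complexes III and IV, Cyc1, the heme-bearing cytochrome c1, stood at 10.86, 10.87 and 10.95 in the wild type on the standard diet and at 10.78, 10.77 and 10.69 on the high-fat diet. In the knockout it stood at 10.60, 10.97 and 10.80 and at 10.61, 10.74 and 10.76. The wild-type diets did not overlap, the knockout ones did, and the averaged difference of -0.12 did not pass (limma adjusted p = 0.236). Uqcrfs1 stood at 9.32, 9.25 and 9.30 and then at 9.02, 8.98 and 9.13 in the wild type, and at 9.22, 9.38 and 9.32 and then at 9.02, 9.21 and 9.28 in the knockout. The wild-type arrays separated by diet, and the knockout arrays overlapped. Cox4i1 stood at 10.97, 10.90 and 11.03 and then at 10.66, 10.58 and 10.85 in the wild type, and at 10.92, 11.10 and 10.94 and then at 10.74, 10.69 and 10.74 in the knockout. Its high-fat arrays were lower without overlap in both genotypes, by -0.27 and -0.26. Cox5b stood at 12.26, 12.22 and 12.24 and then at 11.99, 11.91 and 12.09 in the wild type, and at 12.19, 12.38 and 12.17 and then at 12.01, 12.10 and 12.09 in the knockout, again without overlap. Its other probe set gave -0.27 against -0.21 for the averaged difference.

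To compare the subunits with genes of like level, the 37 subunits other than the isoforms of other tissues, all with a mean level of at least 8.5, were set beside the 3640 other genes at that level. The averaged diet difference had a median of -0.14 in these subunits and -0.01 in the other genes. It was below 0 for 89.2% of the subunits and 51.7% of the other genes, and 32.4% of the subunits fell against 12% of the other genes. In the wild type alone the medians were -0.21 and -0.03, and in the knockout -0.11 and 0.00. The mean level of the 37 subunits ranged from 10.74 to 10.84 on the wild-type standard-diet arrays, from 10.63 to 10.78 in the knockout on that diet, from 10.56 to 10.68 in the wild type on the high-fat diet, and from 10.55 to 10.69 in the knockout on that diet. Of the standard-diet arrays only knockout replicate 1 reached into the range of the high-fat arrays.

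As the runs follow the diets, olfactory, vomeronasal and taste receptor genes, which are dim in liver, show what the same contrast gives elsewhere. Of 1228, 166 rose and 117 fell with the averaged diet. Both shares lay above those of all genes, 10.3% and 7.69%. The split of calls over all genes moved with the scaling. In the wild type 858 of 1194 called genes were higher on the high-fat diet, against 432 of 1078 after centring each array on its median and 635 of 1123 after quantile normalization, while the median subunit difference stayed below 0 under these scalings and cyclic loess (-0.27 to -0.15). Averaged over genotypes 2049 of 3582 called genes were higher, against 1464 of 3588 after centring.

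**Figure D3:**
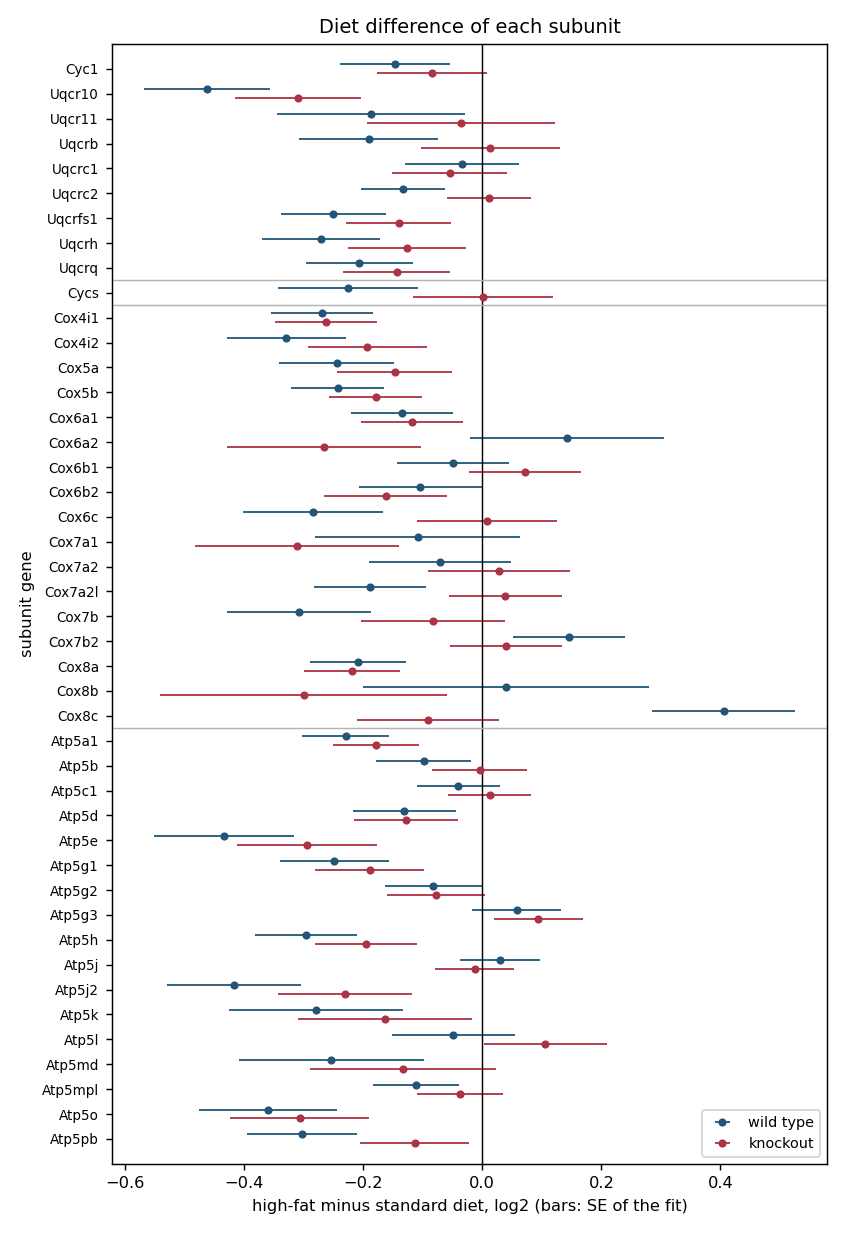
High-fat minus standard diet for each subunit on the log2 scale (x axis), in the wild type (blue) and the knockout (red), with bars of 1 SE of the fit (3 arrays a group). Most points lie left of 0, by a median of -0.19 in the wild type and -0.12 in the knockout.

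The subunits were also divided by the promoter letters. The 19 genes with the NRF1 or ETS letters had a median averaged difference of -0.13 with 5 of 19 called lower. The 14 genes with neither had a median of -0.20 with 5 of 14 called lower. Without the isoforms of other tissues, 10 genes had neither, with a median of -0.20 and 5 of 10 called lower. Of all genes 7.69% were called lower in this comparison. The difference between these sets was not tested.

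The diet difference was not shown to differ between the genotypes. The interaction, taken as the knockout diet difference less the wild-type one, was called for 0 of 44 subunits and 0% of all genes. At an unadjusted limma p under 0.05 stood 1 subunit, Cox8c, and 4.73% of all genes. The interaction values had a median of 0.08 over the subunits, with 35 of 44 above 0, while all genes had a median of -0.05 and 38.4% above 0. Among the 37 subunits of higher level 34 lay above 0 with a median of 0.10, and the other genes at that level had a median of 0.03. Under the other scalings the median over the 44 subunits lay between 0.04 and 0.16. The median was 0.04 without knockout standard-diet replicate 1 and 0.05 without knockout high-fat replicate 3, and no array left out alone took it below 0. The smallest p in complex III was that of Uqcrc2, a core protein of the complex, with values of 11.69, 11.71 and 11.68 and then 11.57, 11.60 and 11.52 in the wild type, and 11.56, 11.59 and 11.68 and then 11.55, 11.60 and 11.70 in the knockout. The wild-type diets separated and the knockout ones overlapped (interaction 0.14, SE 0.0999, limma adjusted p = 0.945). In ATP synthase Atp5j2 (0.19) and Atp5pb (0.19), and in cytochrome c Cycs (0.23), had the smallest p, also at a limma adjusted p of 0.945. Without knockout standard-diet replicate 1 these 3 values were 0.08, 0.12 and 0.13. Atp5j2 ranged from 0.08 to 0.29 and Cycs from 0.13 to 0.37 over all single arrays left out. In complex IV Cox8c, described below, and Cox6a2 (-0.41, or -0.18 without knockout standard-diet replicate 2) had the smallest p.

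On the standard diet no subunit differed between the genotypes by the test. Limma called 0 of 44, against 0.00502% of all genes (1 gene), and at an unadjusted p under 0.05 there were 3 subunits, Cycs lower and Cox8c and Cox6a2 higher (9.73% of all genes). The median difference was -0.03 and 30 of 44 subunits lay below 0, against 0.04 and 39.8% for all genes. Bright genes as a class lay lower in the knockout on this diet: the 37 subunits of higher level had a median of -0.06 with 75.7% below 0, and the 3640 other genes of that level -0.05 with 66.6% below 0. The median over all 44 subunits was 0.00 (0.003829) without knockout replicate 1 and -0.07 without replicate 2, and it was 0.00 (0.00174) after quantile normalization, so no direction is given for the family. Every knockout array was lower than every wild-type array for 5 subunits (Uqcr10, Uqcrc2, Atp5a1, Atp5b and Atp5pb) and higher for 2 (Cox6a2 and Cox8c), against 4.52% and 9.88% of all genes.

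Cycs had the lowest value. It stood at 11.33, 11.11 and 11.20 in the wild type and at 10.72, 10.81 and 11.19 in the knockout. Knockout replicates 1 and 2 were low, while replicate 3 lay among the wild-type arrays. The difference was -0.31 (SE 0.118, limma adjusted p = 0.502), and it was -0.21 without replicate 1, -0.26 without replicate 2 and -0.02 without both. Its second probe set also gave -0.31 and its dimmest one 0.35. On the high-fat diet Cycs stood at 10.96, 11.06 and 10.94 in the wild type and at 10.75, 10.91 and 11.06 in the knockout, which overlap (-0.08). Hccs, the enzyme that attaches heme to cytochrome c, gave -0.16 on the standard diet and did not pass.

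The knockout arrays were also counted singly against the wild-type arrays. Replicate 1 lay below every wild-type array of the diet for 26 of the 37 subunits of higher level (70.3%), against 53.3% of the other genes at that level and 27% of all genes. Replicate 2 did so for 15 of the 37 (40.5%, against 47% and 23.4%), and replicate 3 for 14 (37.8%, against 24.7% and 21.9%). For 15 subunits both replicates 1 and 2 did so (40.5% of the 37, against 33.8% of the other genes at that level), and for 10 of these replicate 3 did not. These 15 were Uqcr10, Uqcrb, Uqcrc2, Uqcrh, Cycs, Cox6b1, Cox6c, Cox7a2, Cox7a2l, Atp5a1, Atp5b, Atp5g2, Atp5l, Atp5md and Atp5pb. Replicate 1 is the array with the high acute-phase mean, and the serum amyloid gene Saa1 stood at 11.78 there against at most 7.88 elsewhere. Not every gene of that list was highest there. Cp, Fga, Socs3 and Steap4 had higher values on another array, and Steap4 (9.42) lay below the median of the other arrays (9.51). The part of the acute-phase state in the subunit values was not tested. On the high-fat diet, knockout replicate 1 lay below every wild-type array for 16 of the 37 (43.2%, against 49.6% of the other genes at that level), and replicates 2 and 3 for 2 each (5.41%, against 19.6% and 9.37%).

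In ATP synthase the smallest p on the standard diet belonged to Atp5pb, subunit b of the peripheral stalk, and Atp5l, subunit g of the membrane sector. Atp5pb stood at 11.54, 11.41 and 11.45 in the wild type and at 11.14, 11.27 and 11.40 in the knockout, without overlap (-0.20, SE 0.0919, limma adjusted p = 0.513), but its other probe set gave 0.00 (0.003883). On the high-fat diet it stood at 11.15, 11.24 and 11.10 and at 10.99, 11.27 and 11.21, which overlap. Atp5l stood at 9.36, 9.15 and 9.27 in the wild type and at 9.00, 8.98 and 9.28 in the knockout, where replicate 3 lies among the wild-type arrays (-0.18, or -0.27 without replicate 3). Its other 5 probe sets gave -0.26 to -0.19, and on the high-fat diet it stood at 9.12, 9.18 and 9.33 and at 9.07, 9.21 and 9.29. Of the 13 subunits with more than 1 probe set, 5 had a set with the opposite sign in this comparison (Atp5g2, Atp5pb, Cox5b, Cycs and Uqcr11). In the averaged diet comparison 3 did (Atp5l, Atp5md and Cycs), none of which was called.

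**Figure D4:**
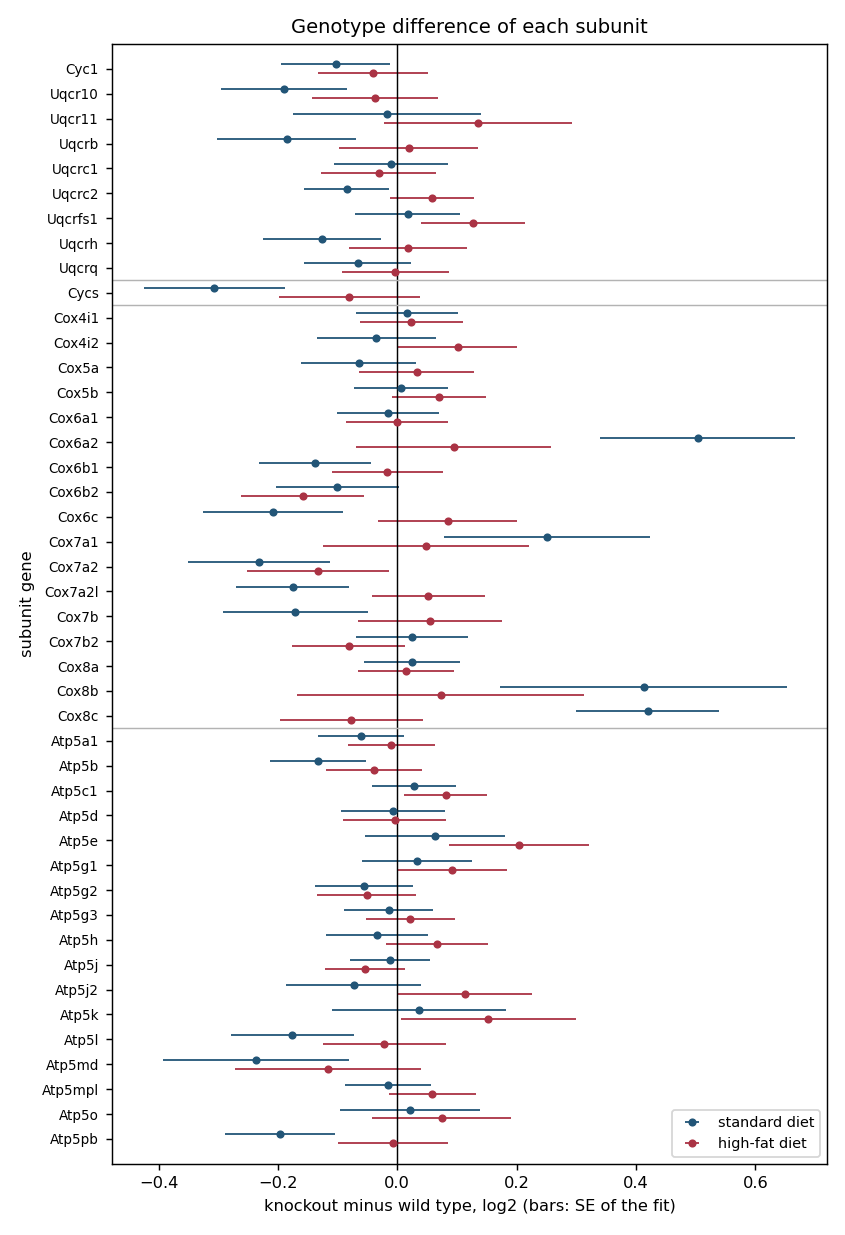
Knockout minus wild type for each subunit on the log2 scale (x axis), on the standard diet (blue) and the high-fat diet (red), with bars of 1 SE of the fit (3 arrays a group). On the standard diet Cycs lies at -0.31 and the isoforms Cox6a2, Cox8c, Cox8b and Cox7a1 at 0.25 or more, and on the high-fat diet all points lie between -0.16 and 0.20.

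The largest values on the standard diet came from complex IV isoforms of other tissues. Cox6a2, the heart and skeletal muscle form of subunit VIa, stood at 6.49, 6.57 and 6.45 in the wild type and at 6.84, 7.47 and 6.72 in the knockout. All 3 knockout arrays were higher, and replicate 2 was far above the others (0.50, SE 0.163, limma adjusted p = 0.502). Without replicate 2 the difference was 0.27. Cox7a1 and Cox8b, the muscle forms of subunits VIIa and VIII, reached 7.58 and 6.83 on that replicate, which is 0.69 and 1.06 above the highest of the other 11 arrays (0.59 for Cox6a2). Their differences were 0.25 and 0.41 with it and -0.02 and -0.00 (-0.001771) without it. The common forms did not stand out as far. Cox6a1, the liver form of subunit VIa, also had its highest value there, at 11.12 against 10.77 to 11.09 on the others. Cox7a2 and Cox8a, the common forms of subunits VIIa and VIII, had higher values on other arrays.

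Muscle genes moved with these isoforms. On knockout standard-diet replicate 2, 10 of 10 markers of skeletal and heart muscle had their highest value, and 6 of them lay more than 0.5 above every other array. The list mean was 7.88 there and between 6.53 and 6.77 on the other 11 arrays. Acta1, skeletal α-actin, stood at 9.80 against at most 7.49 elsewhere, Tnnt3, fast skeletal troponin T, at 9.30 against at most 7.61, and Ckm, muscle creatine kinase, at 8.97 against at most 7.67. The heart-type markers Myh7 (6.65 against at most 6.52) and Tnnt2 (7.14 against at most 6.92) were less far above. Slc25a4, the adenine nucleotide carrier of muscle, stood at 8.29 against at most 7.47. Cox6a2, Cox7a1 and Cox8b are also made in brown fat. Of 6 fat markers 0 had their highest value on that array, against 17.6% of all genes. Ucp1, which defines brown fat, stood at 5.69 there against at most 5.70 elsewhere. The source of the isoform values was not tested. In all, 18 of the 44 subunits had their highest value on it (40.9%, against 17.6% of all genes), among them 14 of the 37 of higher level (37.8%, against 7.75% of the other genes at that level).

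Of the other isoforms, Cox8c, a testis form of subunit VIII, stood at 5.48, 5.21 and 5.53 in the wild type on the standard diet and at 5.74, 5.99 and 5.75 in the knockout (0.42, SE 0.120, limma adjusted p = 0.502). It stood at 5.88, 5.88 and 5.67 in the wild type on the high-fat diet and at 5.90, 5.60 and 5.70 in the knockout. The wild-type standard-diet arrays were the lowest of all, the other groups overlapped, and the interaction was -0.50 (limma adjusted p = 0.945). The dim receptor genes named above also had a median above 0 between the genotypes on the standard diet (0.10). Cox7b2 ranged from 3.98 to 4.32 over all arrays and Cox4i2 from 6.62 to 7.13, with genotype values of 0.02 and -0.04 on the standard diet. Cox6b2, a testis form of subunit VIb, stood at 8.63, 8.38 and 8.53 and at 8.34, 8.47 and 8.44 on the standard diet, with overlap (-0.10). The 6 testis markers had list means of 5.61 to 5.88.

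**Figure D5:**
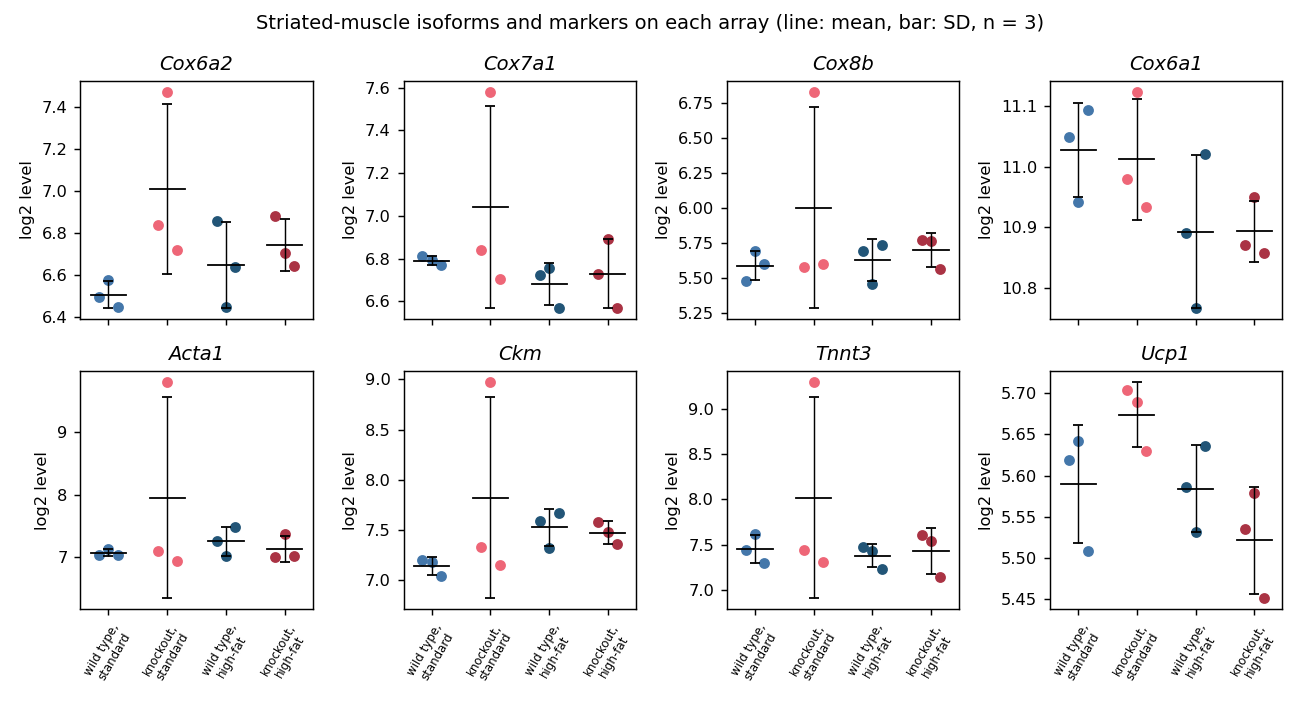
Log2 level (y axis, own scale in each panel) on each array in the 4 groups (x axis) of the muscle isoforms Cox6a2, Cox7a1 and Cox8b, the common isoform Cox6a1, the muscle genes Acta1, Ckm and Tnnt3 and the brown fat gene Ucp1, with a line at the group mean and a bar of 1 SD (n = 3). One knockout standard-diet array is high for the isoforms and muscle genes, at 7.47 for Cox6a2 and 9.80 for Acta1, and is not the highest for Ucp1.

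On the high-fat diet no subunit differed between the genotypes by the test. Limma called 0 of 44 and 0% of all genes, and at an unadjusted p under 0.05 there were 0 subunits and 2.86% of all genes. The median subunit difference was 0.02 with 26 of 44 above 0, against -0.02 and 43.1% for all genes, and the median lay between -0.00 (-0.003089) and 0.05 with each array left out in turn. The values spanned -0.16 to 0.20, and for 1 subunit, Atp5c1, the groups did not overlap (2.41% of all genes were higher in the knockout without overlap and 4.27% lower).

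The members with the smallest p in each complex gave small differences. Atp5e, at 8.33, 8.498 and 8.83 in the wild type against 8.83, 8.71 and 8.73 in the knockout, had the highest value (0.20, SE 0.117, limma adjusted p = 1), which was 0.09 without wild-type replicate 1 and 0.34 without replicate 3. Atp5c1, the γ subunit that turns inside the head, stood at 12.31, 12.34 and 12.34 against 12.35, 12.49 and 12.40 (0.08), and all 3 knockout arrays were higher. Its standard-diet values were 12.43, 12.32 and 12.37 in the wild type and 12.36, 12.47 and 12.37 in the knockout, which overlap. Uqcr11, the smallest subunit of complex III, stood at 8.42, 8.59 and 9.20 against 8.93, 8.76 and 8.93 (0.13), all within the wide wild-type range, and Uqcrfs1 gave 0.13. Uqcr11 had stood at 8.95, 8.81 and 9.00 in the wild type and at 8.77, 9.10 and 8.85 in the knockout on the standard diet. Cox6b2 stood at 8.36, 8.25 and 8.62 against 8.26, 8.18 and 8.31 (-0.16). Cox7a2, the common form of subunit VIIa, stood at 9.24, 9.29 and 9.37 against 9.03, 9.34 and 9.14 (-0.13). In both the groups overlapped. With 1 array left out, Cox6b2 ranged from -0.24 to -0.05, Cox7a2 from -0.22 to -0.06, Uqcr11 from -0.02 to 0.37, Uqcrfs1 from 0.07 to 0.20 and Atp5c1 from 0.04 to 0.11. On the standard diet Cox7a2 stood at 9.43, 9.22 and 9.47 in the wild type and at 8.88, 9.21 and 9.34 in the knockout (-0.23).

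Averaged over the diets, 0 of 44 subunits and 0% of all genes were called between the genotypes. The median subunit difference was -0.01 and changed sign with the array left out (-0.04 to 0.01), so no direction is given. Cox6a2 (0.30), Cycs (-0.19) and Cox7a2 (-0.18) stood at an unadjusted limma p under 0.05, as did 6.64% of all genes.

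Other genes of the pathway were described from lists chosen by role. The list for complex I, 43 genes with symbols that start with Ndufa, Ndufb, Ndufc, Ndufs or Ndufv, included some assembly factors. With the averaged diet 7 of the 43 fell and 0 rose, against 7.69% and 10.3% of all genes. Of the 43, 37 lay below 0, against 46.5% of all genes, and the median was -0.13. Among the 7 were Ndufb8 (-0.31), Ndufs7 (-0.30) and Ndufb7 (-0.30), and in the wild type alone Ndufb10 fell (-0.42). Complex II, which pumps no protons, had 1 of 4 genes called, Sdhd (-0.23). Between the genotypes, 0 genes were called in any of the lists of this paragraph and the next.

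Assembly factors gave mixed values. The counts below stand beside all genes, of which 7.69% fell and 10.3% rose with the averaged diet. In the wild type 1.69% of all genes fell and 4.3% rose, and in the knockout 5.11% were called. Lists this short do not show a share that differs from these. Of 6 complex III assembly factors, Uqcc1, which helps the synthesis of cytochrome b, rose with the averaged diet (0.26, limma adjusted p = 0.0183). Of 21 measured complex IV assembly factors, 2 fell with the averaged diet, Cmc2 (-0.28) and Coa4 (-0.23), and 0 rose. Cmc2 fell in the wild type (-0.39, limma adjusted p = 0.0328) and Coa4 in the knockout (-0.37, limma adjusted p = 0.0343). Of 5 genes for ATP synthase assembly and inhibition, Tmem70, which helps build the c ring, rose in the knockout (0.45, limma adjusted p = 0.0171) and with the averaged diet (0.32), while Fmc1 fell with the averaged diet (-0.38). The inhibitor Atpif1 gave 0.17 and did not pass. Of 4 adenine nucleotide and phosphate carriers and 2 genes of cytochrome c handling, 0 were called, and Slc25a3, the phosphate carrier, had the smallest p (-0.16). Of 13 regulators, 2 rose with the averaged diet and 0 fell: Ppargc1b, a coactivator of mitochondrial genes (0.45), and the transcription factor Yy1 (0.34). Both rose in the wild type as well (0.52 and 0.36, limma adjusted p = 0.0273 and 0.0470). Nrf1 (0.09), Gabpa (0.15), Tfam (0.15) and Ppargc1a (-0.08) did not pass. The 6 subunits encoded by mitochondrial DNA were not among the genes analysed here, and Cox7c is listed here on 3 probe sets annotated with more than 1 gene and was not used.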

How the data were processed

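Total RNA from 12 liver samples was measured on Affymetrix whole-transcript arrays, 3 arrays in each of 4 groups. Per the submitters' processing notes, the authors used Affymetrix Expression Console and RMA, and the deposited values are log2 expression values per probe set. The software version is not given in the sources used here. Of 35557 probe sets, 21789 had 1 gene symbol, 1621 several and 12147 were not listed in the annotation given. The set with the highest mean stood for each of 19938 genes.

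Differences were fitted with limma 3.58.1 (R 4.3.3), with 1 mean per group, an intensity trend, 8 residual degrees of freedom, and Benjamini-Hochberg adjustment over all genes, called at an adjusted p under 0.05. The fit was tested on simulated data. The members and lists were chosen with earlier results of these data known. Values on every array were given for the members called within a genotype, a diet or the interaction, for the 2 members of each complex (cytochrome c with complex III) with the smallest p in each genotype comparison and the interaction, and for Cyc1, Cycs, Uqcrfs1, Cox4i1, Cox5b and Atp5b for their roles. Of the other lists, called genes or the gene with the smallest p were named. Muscle isoforms, the array-specific markers and the remaining names were added after their values were seen. The number of arrays limits the precision: the median SE was 0.114 for a difference of 2 groups and 0.161 for the interaction. Alternatives covered scaling, moderation, array weights, probe sets, filters, thresholds and left-out arrays. Same-numbered arrays did not deviate together in every pair (correlations of -0.212 to 0.407, not all over 0.1), so the numbers were not taken as pairs.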

Additional observations from a re-analysis of the deposited data

How the results depend on the processing

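The counts of called subunits changed most for the diet in the wild type, where 3 fell. This count was 18 with array weights, 10 after median centring, 11 at an adjusted p under 0.1, 1 with the dimmest genes left out, 0 against a minimum log2 difference of 0.2, and 0 to 6 with 1 array left out. The calls over all genes moved as well: 432 of 1078 were higher after median centring, against 858 of 1194 before. The counts of this paragraph are given without the share of all genes called in each setting, so they do not show a stronger subunit result. In the knockout, with 0 called, array weights gave 3 and an adjusted p under 0.1 gave 1. For the averaged diet, with 13 called, the minimum difference of 0.2 gave 0, and leaving out 1 array gave 9 to 17. Uqcr10 was called for the averaged diet in 24 of 25 settings, and Atp5g1, Atp5pb and Uqcrfs1 in 13. Median centring moved the median subunit difference to -0.11 between the genotypes on the standard diet, -0.27 for the diet in the wild type and 0.16 for the interaction. The causes were not tested.

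The sign turned for Uqcr11 between the genotypes on the high-fat diet (-0.0222 without wild-type replicate 1 of that diet, against up to 0.367 with another array left out). Without both knockout standard-diet replicates 1 and 2, a setting chosen after seeing the data that leaves 1 array in the group, assumed to vary like the others, it turned for Atp5l on the standard diet (0.0194) and for Cycs in the interaction (-0.0619). None of these was called in the first place.

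With the replicate number as a block, 2 subunits were called for the diet in the wild type, 15 for the averaged diet and 0 in the other comparisons. The share of all genes called in this fit is not given here, so these counts do not show a stronger or weaker subunit result. The pairing is not given by the labels.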
